A study of Rattus norvegicus with 40 samples.

Results

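ER stress and ATF4 response genes were followed across chemically induced liver cancer in the rat. They are the 10 genes of the count tables with the symbols Hspa5, Dnajb9, Sdf2l1, Herpud1, Xbp1, Atf4, Ddit3, Trib3, Asns and Chac1, chosen by name as genes of the unfolded protein response and of amino acid stress, out of 17337 genes in all. Liver mRNA of 24 male Fischer 344 rats was sequenced in 40 libraries. DEN (diethylnitrosamine, a carcinogen that hepatocytes activate) was injected into the peritoneum once a week at 50 mg/kg, beginning when rats were 7 weeks old, and livers were taken after 8 weeks, after 14 weeks, or at 20 weeks after a further 6 weeks without DEN. Non-tumor liver (NT) was taken from 4 DEN-treated rats at each time, 2 tumor nodules came from each of the 4 rats at 14 and at 20 weeks, and 4 rats of the same age that received no DEN gave the control liver at each time. The study's methods describe olive oil as the diluent of DEN, and an oil-injected control is not among the groups analysed here.

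Proteins that enter the endoplasmic reticulum (ER) are folded there by chaperones, and a surplus of unfolded protein is sensed by PERK, IRE1 and ATF6. IRE1 splices Xbp1 mRNA, ATF6 and spliced XBP1 raise chaperones and the machinery of ER-associated degradation, and PERK phosphorylates eIF2alpha, which slows translation in general and favours translation of Atf4. ATF4 is also reached from lack of amino acids through the kinase GCN2, and it raises genes of amino acid supply such as Asns as well as Ddit3 (CHOP), Trib3 and Chac1. The liver secretes large amounts of protein and depends on this system throughout life. Gene counts do not separate spliced from unspliced Xbp1 and do not measure translation of Atf4 mRNA.

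The promoters show which members carry the DNA letters that these factors are known to read. Windows from 250 bases before to 50 bases after the RefSeq start of all 10 members were found in assembly GRCr8, which differs from rn6, the build of the counts. The ER stress element (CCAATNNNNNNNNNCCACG), which ATF6 binds together with NF-Y, was found in Hspa5 and Xbp1 and in 0.0657% of 33469 promoter windows. Its type II form (ATTGGNCCACG) was found in Herpud1 and in 0.0508% of windows, and the element that ATF4 binds with a C/EBP partner (TGATGCAA or TGATGAAA) in Herpud1, Chac1 and 1.91% of windows. The XBP1 element TGACGTGG was in 0.595% of windows and in none of the members' windows. Both strands were searched, and a match describes letters only. The windows of the 4 members with a match are shown with that of Asns, the member whose level moved most, and capitals mark the matched letters: -43 to -25 from the start in Hspa5, -65 to -47 in Xbp1, -124 to -114 (type II) and -184 to -177 (ATF4-C/EBP, minus strand) in Herpud1, and -167 to -160 (minus strand) in Chac1. The windows lie at chr3:38452766-38453065 (plus strand) for Hspa5, chr14:84604373-84604672 (plus) for Xbp1, chr19:10614658-10614957 (minus) for Herpud1, chr3:126795881-126796180 (plus) for Chac1 and chr4:36769366-36769665 (minus) for Asns.
Hspa5: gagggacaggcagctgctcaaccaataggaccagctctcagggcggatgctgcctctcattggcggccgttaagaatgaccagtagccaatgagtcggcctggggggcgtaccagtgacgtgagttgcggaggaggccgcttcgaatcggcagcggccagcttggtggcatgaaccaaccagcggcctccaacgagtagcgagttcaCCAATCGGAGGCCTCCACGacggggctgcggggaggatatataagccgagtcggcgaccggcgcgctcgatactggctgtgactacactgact
Xbp1: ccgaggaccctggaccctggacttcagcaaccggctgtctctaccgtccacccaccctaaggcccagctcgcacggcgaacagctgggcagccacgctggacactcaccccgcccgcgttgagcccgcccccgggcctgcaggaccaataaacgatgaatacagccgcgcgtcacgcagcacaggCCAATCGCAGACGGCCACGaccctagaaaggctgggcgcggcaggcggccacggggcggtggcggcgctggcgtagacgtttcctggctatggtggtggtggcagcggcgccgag
Herpud1: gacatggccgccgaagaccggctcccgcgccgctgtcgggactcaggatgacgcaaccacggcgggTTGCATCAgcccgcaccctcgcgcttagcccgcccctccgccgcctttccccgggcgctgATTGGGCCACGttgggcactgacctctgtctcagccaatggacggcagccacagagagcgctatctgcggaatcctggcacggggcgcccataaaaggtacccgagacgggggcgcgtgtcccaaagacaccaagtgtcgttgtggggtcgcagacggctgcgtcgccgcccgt
Chac1: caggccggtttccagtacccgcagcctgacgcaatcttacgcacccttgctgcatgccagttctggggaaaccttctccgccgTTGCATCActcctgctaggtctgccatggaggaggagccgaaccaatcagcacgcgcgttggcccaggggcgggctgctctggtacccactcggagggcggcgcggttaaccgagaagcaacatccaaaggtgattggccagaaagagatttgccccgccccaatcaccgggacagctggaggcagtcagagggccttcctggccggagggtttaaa
Asns: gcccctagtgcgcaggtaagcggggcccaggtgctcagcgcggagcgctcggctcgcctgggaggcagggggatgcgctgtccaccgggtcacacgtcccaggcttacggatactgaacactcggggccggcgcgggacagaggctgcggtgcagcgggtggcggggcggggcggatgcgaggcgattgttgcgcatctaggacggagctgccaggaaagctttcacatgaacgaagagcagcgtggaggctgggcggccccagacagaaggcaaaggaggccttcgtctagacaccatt

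All 10 members were detected in every library, from at least 37 counts for Chac1 to at least 16163 for Hspa5. Counted pairs per library ranged from 20528515 to 160622633 with a median of 30477421, at which 1 CPM (1 count per 1000000 counted pairs) is 30.5 counts. The library with the most pairs is NT liver of rat H26 at 20 weeks and exceeded the next by 4.08 times. The nodules of rat F06 had the highest shares of pairs outside annotated genes, 34.5% for nodule 1, which also had the fewest counted pairs, and 28.2% for nodule 2. Nodule 1 of rat F03 had the highest share that mapped to more than 1 place, 16.3%. These libraries hold several of the extreme member values below; the 5 members called in nodules at 14 weeks also passed without F06. All 6 hepatocyte markers were present and Alb took 10.4% to 19.0% of counted pairs. The labels number rats with a letter, F or H, whose meaning they do not give, and all no DEN rats are of letter H, so the 4 DEN-treated F rats (F09 and F10 at 8 weeks, F06 at 14 weeks, F03 at 20 weeks) have no controls of their own letter. Levels are CPM scaled by TMM, and since they are not per length, no level is compared between genes.

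The members moved in both directions. Against no DEN liver, 4 of 10 members passed the test in NT liver at 8 weeks (3 up, 1 down), where 35.3% of all genes tested passed. In NT liver at 14 weeks 4 members passed (2 up, 2 down; 54.4% of all genes), and at 20 weeks 2 passed, both up (27.6%). In nodules 5 members passed at 14 weeks (2 up, 3 down; 50.7%) and 3 at 20 weeks (2 up, 1 down; 52.7%). Each of these shares is close to or below the background of its comparison. All calls are at an adjusted p of at most 0.05 in the quasi-likelihood test of edgeR, adjusted by Benjamini-Hochberg over every gene tested, unless another fit is named. A ± after a log2 fold change below is the standard error of the fit that gave it. Many values of alternative fits and those of list genes are given without one. The NT and nodule comparisons of a week share the same no DEN rats. In bulk liver, fewer cells of a type and less RNA per cell cannot be told apart.

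**Figure D1:**
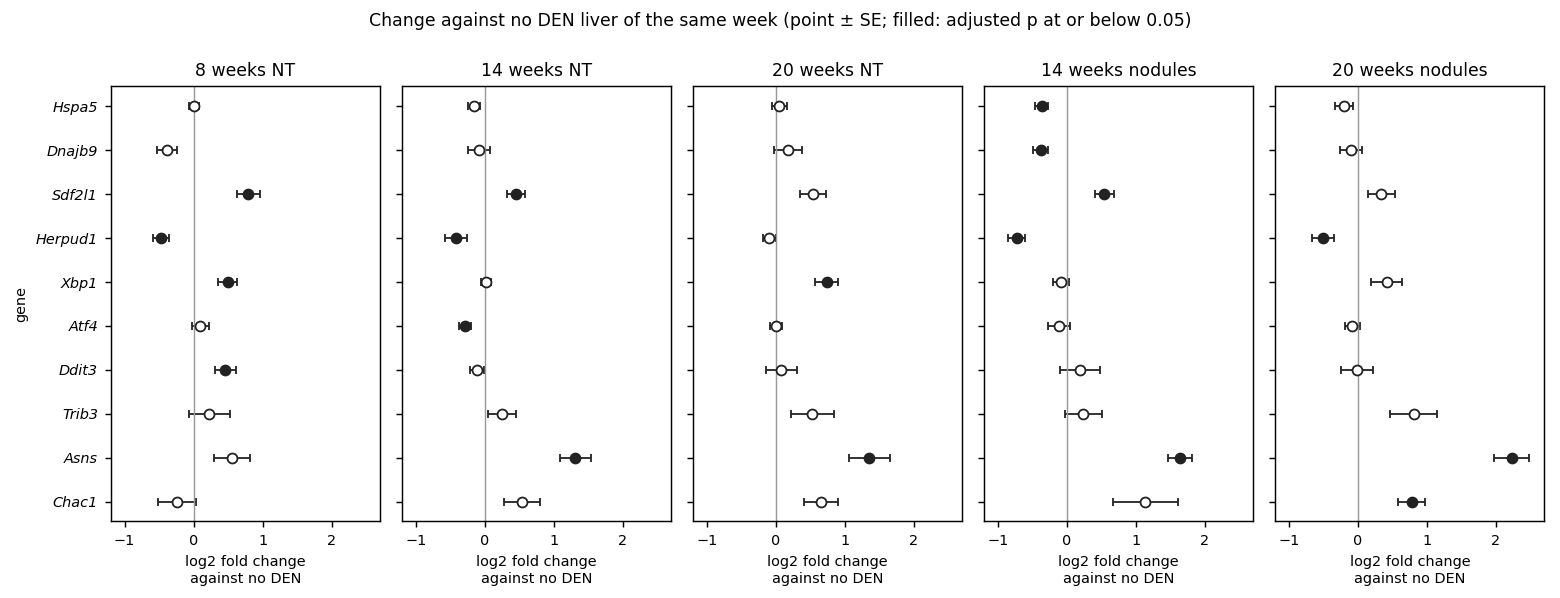
Log2 fold change (x axis, point ± SE) of the 10 members (y axis) against no DEN liver of the same week, in NT liver at 8, 14 and 20 weeks and in nodules at 14 and 20 weeks; filled points have an adjusted p of at most 0.05. Asns lies farthest to the right in 4 panels, from 1.31 in NT liver at 14 weeks to 2.23 in nodules at 20 weeks, while Herpud1 lies left of 0 in all 5.

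Hspa5 (BiP), the main ER chaperone and the usual readout of ER stress, was lower in nodules at 14 weeks and did not pass in NT liver. In no DEN liver it stood at 1217, 1212, 1163 and 1157 CPM at 8 weeks, 1162, 981, 1010 and 1020 CPM at 14 weeks, and 1048, 886, 904 and 1064 CPM at 20 weeks. NT liver had 1292, 1222, 1204 and 1092 CPM at 8 weeks, 1000, 885, 885 and 942 CPM at 14 weeks and 993, 1156, 1090 and 829 CPM at 20 weeks. Each NT range overlapped that of its controls, with log2 fold changes of 0.01 ± 0.07, -0.16 ± 0.09 and 0.05 ± 0.11 and adjusted p of 0.936, 0.147 and 0.758. The 8 nodules at 14 weeks lay between 696 and 962 CPM (median 827), all below the 4 controls, and Hspa5 fell there, with a log2 fold change of -0.37 ± 0.10, to 0.776 of the no DEN level (adjusted p = 0.0115). At 20 weeks the nodules spread from 672 to 1072 CPM with a median of 858, overlapping the controls (log2 fold change -0.21 ± 0.13, adjusted p = 0.207). Without rat F06, NT liver at 14 weeks also passed (-0.21, adjusted p = 0.0482), as it did in DESeq2 (-0.19, adjusted p = 0.0491).

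Dnajb9 (ERdj4), a BiP co-chaperone that holds IRE1 in check, showed a similar small decrease in nodules at 14 weeks. Its level was 52.8, 52.1, 42.5 and 53.2 CPM in no DEN liver at 8 weeks and 50.9, 30.5, 38.7 and 34.7 CPM in NT liver, where only rat F09 stood within the control range. That difference missed the threshold (-0.38 ± 0.14, adjusted p = 0.0612) and passed among rats of letter H (-0.44, adjusted p = 0.0132) and in DESeq2 (adjusted p = 0.0343). At 14 weeks no DEN liver had 41.1, 31.9, 42.9 and 36.1 CPM and NT liver 49.0 CPM in rat F06 against 30.2 to 32.2 CPM in the other 3 rats. With rat F06 the NT difference was -0.08 ± 0.16 (adjusted p = 0.686), and without it -0.29 (adjusted p = 0.0214). Nodules at 14 weeks ranged from 25.4 to 36.4 CPM (median 28.8) and Dnajb9 fell there, with a log2 fold change of -0.38 ± 0.11 (adjusted p = 0.0185), a call lost with nodule 2 alone (-0.29, adjusted p = 0.0643) without 4 of the rats in turn (adjusted p up to 0.0639) and when all 8 groups were fitted together (adjusted p = 0.0855). At 20 weeks NT liver spread from 29.4 to 53.5 CPM and nodules from 29.0 to 45.5 CPM around controls of 31.0 to 45.0 CPM, and neither passed (adjusted p = 0.537 and 0.599).

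Sdf2l1, an ER-resident partner of the BiP chaperone complex, went the other way. In no DEN liver it measured 34.0, 26.1, 24.6 and 26.2 CPM at 8 weeks, and in NT liver 55.0, 60.4, 34.2 and 43.1 CPM. The NT livers were all above the controls, and Sdf2l1 rose by 0.79 ± 0.17 or 1.73 times (adjusted p = 0.00508). The highest values were those of the F rats, F09 and F10. At 14 weeks the controls had 30.2, 25.98, 25.8 and 19.3 CPM, NT liver 35.1, 29.6, 39.0 and 33.7 CPM, and the 8 nodules 32.9 to 42.1 CPM with a median of 38.1. Sdf2l1 rose in NT liver (0.45 ± 0.13, adjusted p = 0.0145; 0.0538 when all 8 groups were fitted together) and in nodules (0.54 ± 0.14, adjusted p = 0.0111), and the nodules did not overlap the controls. At 20 weeks rat H13, a control, was at 39.2 CPM and the other 3 controls at 19.8 to 29.1 CPM, against 35.2 to 44.9 CPM in NT liver and 29.3 to 56.4 CPM in nodules. Neither passed (0.54 ± 0.18, adjusted p = 0.0534, and 0.34 ± 0.20, adjusted p = 0.177), and both did without H13 (0.71, adjusted p = 0.00632, and 0.53, adjusted p = 0.0277). NT liver also passed in DESeq2 (adjusted p = 0.0313) and when all 8 groups were fitted together (adjusted p = 0.0289).

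Herpud1, an ER membrane protein that brings substrates to the ER-associated degradation complex, was the member that fell most often. No DEN liver had 171, 163, 159 and 155 CPM at 8 weeks and NT liver 146, 97.5, 106 and 118 CPM, without overlap, and Herpud1 fell to 0.717 of the control level (-0.48 ± 0.12, adjusted p = 0.00883). At 14 weeks the controls stood at 131, 123, 167 and 143 CPM, and NT liver at 91.2, 90.6 and 93.9 CPM in the H rats but 143 CPM in F06. That NT decrease of -0.42 ± 0.16 was close to the threshold (adjusted p = 0.047) and was lost on leaving out any of 6 of the 8 rats, the adjusted p then reaching 0.119. The 8 nodules at 14 weeks, 71.2 to 115 CPM with a median of 86.4, were all below the controls, and Herpud1 fell there, with a log2 fold change of -0.73 ± 0.12 to 0.603 of their level (adjusted p = 0.00113). After 6 weeks without DEN, NT liver had 117, 136, 126 and 112 CPM against 112, 128, 137 and 144 CPM in controls, and the ranges overlapped almost entirely (-0.10 ± 0.10, adjusted p = 0.49). Nodules at that time ranged from 66.0 to 131 CPM (median 88.6), and Herpud1 fell with a log2 fold change of -0.51 ± 0.16 (adjusted p = 0.0199). That call was lost without rat F03 (-0.44, adjusted p = 0.0547), without H16 (adjusted p = 0.0571) and with nodule 2 alone (adjusted p = 0.0535).

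Xbp1, whose spliced product drives ER chaperone and secretory genes, was high in NT liver at 8 and 20 weeks and at control level at 14 weeks. In no DEN liver the counts of all Xbp1 forms together gave 202, 189, 150 and 234 CPM at 8 weeks, 159, 183, 160 and 159 CPM at 14 weeks and 176, 162, 199 and 215 CPM at 20 weeks. NT liver had 305, 265, 301 and 223 CPM at 8 weeks, 171, 155, 180 and 159 CPM at 14 weeks and 350, 387, 319 and 209 CPM at 20 weeks. Xbp1 rose in NT liver at 8 weeks (0.49 ± 0.13, adjusted p = 0.0161) and at 20 weeks (0.74 ± 0.17, adjusted p = 0.00988), and its difference at 14 weeks was 0.02 ± 0.08 (adjusted p = 0.86). Rat H18 at 8 weeks and rat H28 at 20 weeks lay inside the control range. Among rats of letter H the 8-week call was lost (0.45, adjusted p = 0.0842). Nodules ranged from 129 to 198 CPM at 14 weeks (median 155) and from 124 to 364 CPM at 20 weeks (median 269), and neither group passed against no DEN (-0.09 ± 0.12, adjusted p = 0.563, and 0.42 ± 0.23, adjusted p = 0.142). The 20-week nodules passed without rat H28 (0.61, adjusted p = 0.00806), whose nodules were at 186 and 124 CPM, and when all 8 groups were fitted together (0.43, adjusted p = 0.0471).

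Atf4, the transcription factor translated under eIF2alpha phosphorylation, passed in 1 comparison at the mRNA level. Its medians in no DEN liver were 197, 168 and 191 CPM at 8, 14 and 20 weeks, beside 208, 132 and 185 CPM in NT liver and 145 and 182 CPM in nodules at 14 and 20 weeks. The call was a decrease in NT liver at 14 weeks, where rats F06, H21, H22 and H23 had 161, 132, 133 and 125 CPM against 158, 178, 174 and 162 CPM in controls (-0.28 ± 0.09, adjusted p = 0.0185). Leaving out H10 or H23 brought that adjusted p to 0.05 and 0.0531. In nodules at 14 weeks F06 stood apart at 222 and 205 CPM, and the other 6 nodules had 127 to 153 CPM. With F06 the nodules did not pass (-0.11 ± 0.16, adjusted p = 0.57), and without it they were lower than controls at a log2 fold change of -0.28 (adjusted p = 0.00305).

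Ddit3 (CHOP), the factor of prolonged ER stress, was raised in NT liver at 8 weeks by a narrow margin. NT liver had 13.9, 14.1, 11.1 and 14.0 CPM against 12.5, 10.2, 7.93 and 7.88 CPM in no DEN liver (0.46 ± 0.15, adjusted p = 0.0371), with rat H17 inside the control range. The call was lost among rats of letter H (0.40, adjusted p = 0.163), when all 8 groups were fitted together (adjusted p = 0.146) and on leaving out any of 6 of the 8 rats (adjusted p 0.0673 to 0.108). At 14 weeks NT liver had 7.08 to 9.14 CPM and controls 8.19 to 9.67 CPM, and at 20 weeks 7.48 to 11.4 CPM and 6.62 to 13.4 CPM (adjusted p = 0.376 and 0.823). The nodules of F06 at 14 weeks reached 23.03 and 12.7 CPM, whereas the other 6 had 6.196 to 8.72 CPM. Both F06 libraries are those with the highest shares of pairs outside genes, and without this rat the nodule difference was -0.21 (adjusted p = 0.0652). At 20 weeks nodule 1 of F03, the library with the highest share of multiply mapped pairs, had 17.03 CPM and the remaining 7 nodules 5.93 to 10.3 CPM. Neither nodule group passed against no DEN (0.19 ± 0.29, adjusted p = 0.618, and -0.02 ± 0.24, adjusted p = 0.96).

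**Figure D2:**
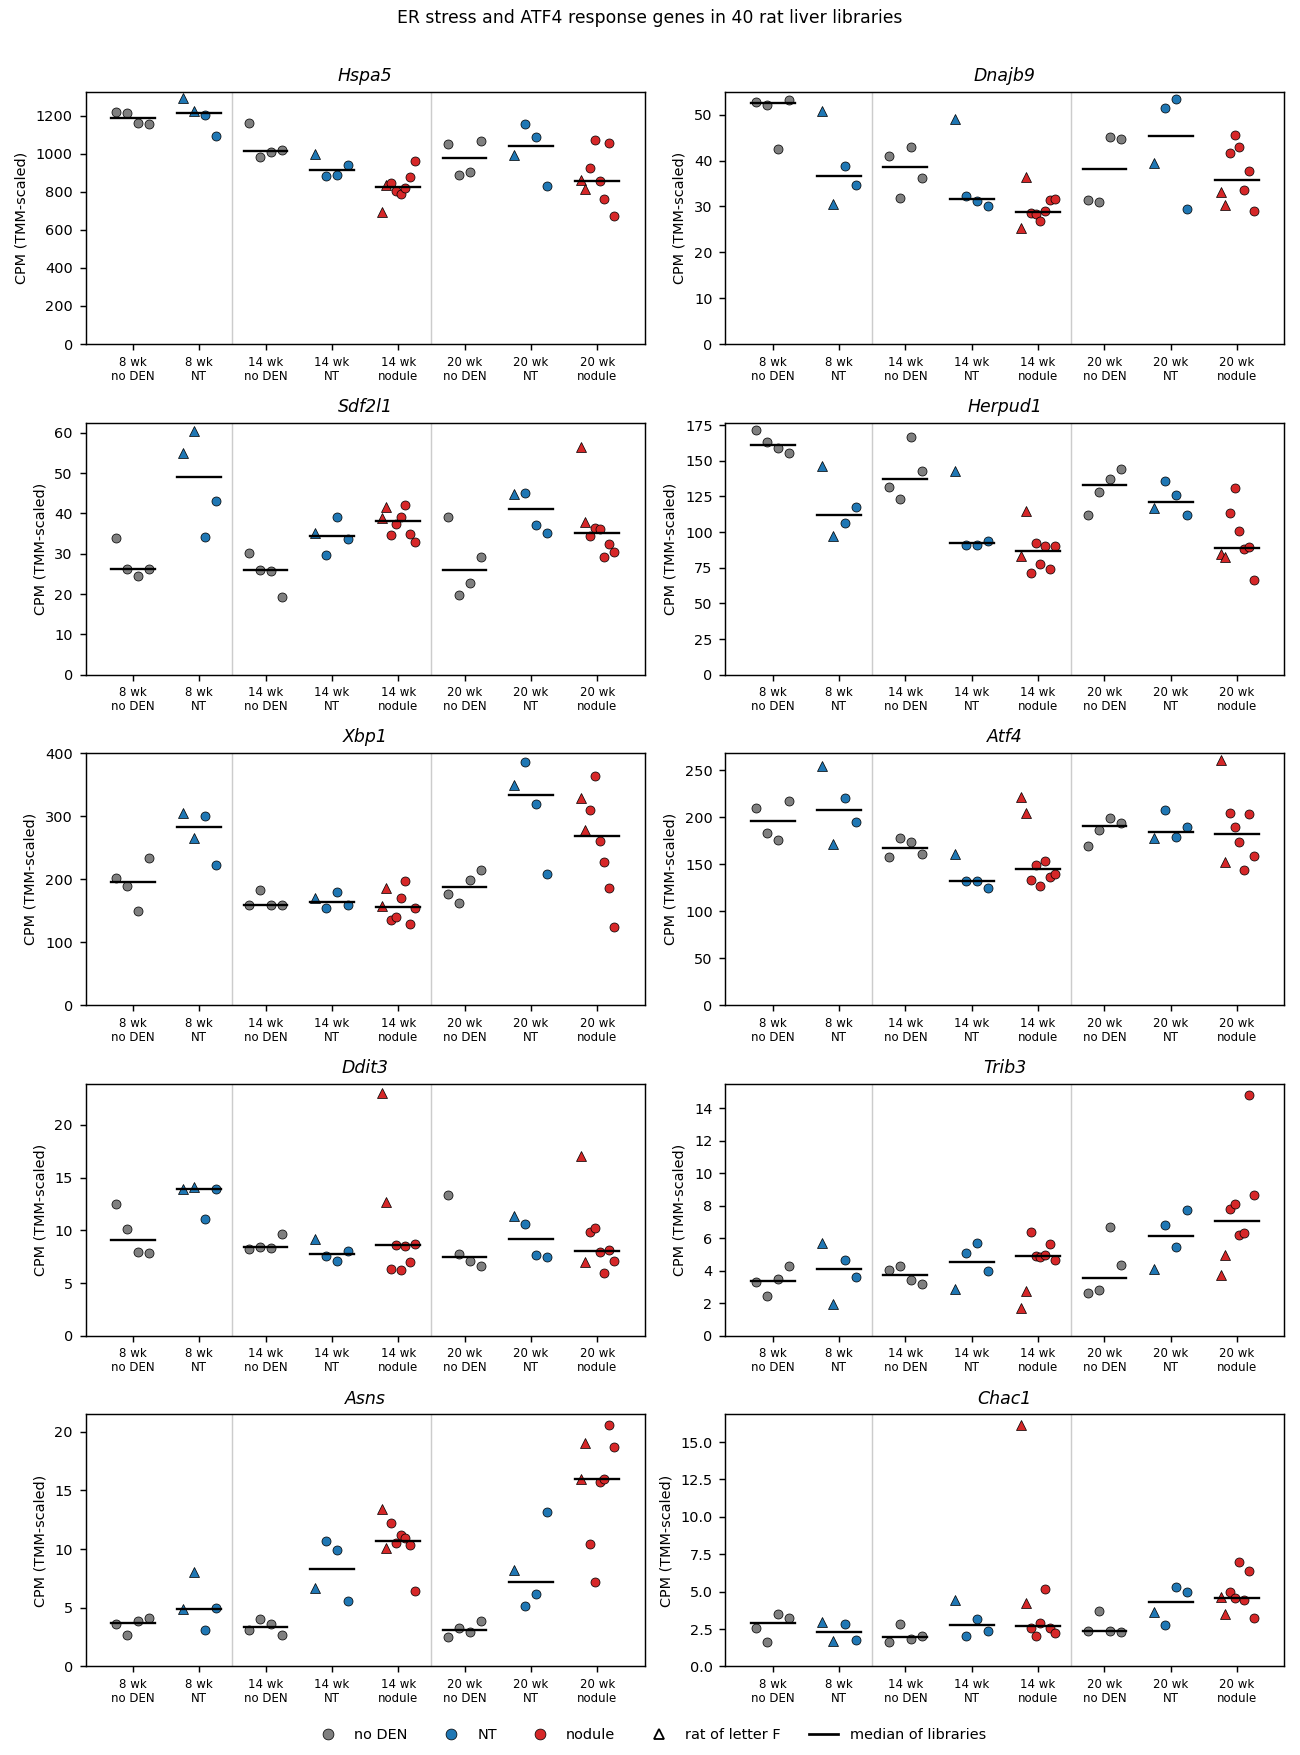
TMM-scaled CPM (y axis, from 0) of each member in each of the 40 libraries, by week and tissue (x axis; grey no DEN, blue NT, red nodules, triangles rats of letter F, black lines medians of libraries). Asns climbs from a median of 3.34 CPM in controls at 14 weeks to 10.7 CPM in nodules and from 3.13 to 15.98 CPM at 20 weeks, and the F06 triangles stand apart at 14 weeks for Herpud1, Dnajb9, Atf4, Ddit3, Trib3 and Chac1.

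Asns, the asparagine synthetase that is a standard ATF4 target, had the largest change of the 10 members. In no DEN liver it stayed low, at 3.59, 2.65, 3.83 and 4.13 CPM at 8 weeks, 3.09, 4.04, 3.60 and 2.64 CPM at 14 weeks and 2.54, 3.29, 2.96 and 3.91 CPM at 20 weeks. NT liver had 4.85, 8.03, 3.14 and 5.01 CPM at 8 weeks, 6.72, 10.7, 9.95 and 5.57 CPM at 14 weeks and 8.23, 5.11, 6.19 and 13.1 CPM at 20 weeks. The 14- and 20-week NT livers were all above their controls. Asns rose there by 1.31 ± 0.22 (adjusted p = 0.000719) and 1.35 ± 0.30 (adjusted p = 0.00923), or 2.48 and 2.55 times, while the 8-week difference of 0.55 ± 0.26 missed the threshold (adjusted p = 0.119) and passed without rat H17 (0.73, adjusted p = 0.0171). The nodules had 6.43 to 13.4 CPM at 14 weeks with a median of 10.7, and at 20 weeks 7.21 to 20.6 CPM with a median of 15.98. All 16 nodules exceeded all their controls. Asns rose by 1.64 ± 0.17 or 3.12 times at 14 weeks (adjusted p = 8.66e-05) and by 2.23 ± 0.25 or 4.68 times at 20 weeks (adjusted p = 0.000127).

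Chac1, an enzyme that degrades glutathione and a target of ATF4, rose in nodules at 20 weeks. Controls then had 2.34, 3.73, 2.38 and 2.28 CPM and the 8 nodules 3.25 to 6.96 CPM with a median of 4.603, a change of 0.78 ± 0.20 (adjusted p = 0.00807). The call was lost with nodule 2 alone (0.54, adjusted p = 0.0646) and when all 8 groups were fitted together (adjusted p = 0.0614). NT liver had 2.94, 1.72, 2.87 and 1.75 CPM at 8 weeks, 4.45, 2.03, 3.20 and 2.35 CPM at 14 weeks and 3.66, 2.76, 5.31 and 4.998 CPM at 20 weeks, and none of these differences passed (adjusted p = 0.51, 0.104 and 0.0686). NT liver passed at 14 weeks without H21 (0.69, adjusted p = 0.0428) and at 20 weeks without H14 (adjusted p = 0.04) or H25 (adjusted p = 0.0224). At 14 weeks nodule 1 of F06 had 16.1 CPM, the highest of the 40 libraries and in the library with the fewest counted pairs and the highest share of pairs outside genes, nodule 2 of that rat 4.25 CPM, and the other 6 nodules 2.07 to 5.16 CPM. The 14-week nodule difference was 1.14 ± 0.48 (adjusted p = 0.0736) and 0.49 without F06 (adjusted p = 0.087). It passed in DESeq2 (adjusted p = 0.0303), when all 8 groups were fitted together (adjusted p = 0.0074) and without H21 or H23.

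Trib3, a pseudokinase induced by ATF4 and CHOP, passed in none of the comparisons in the fits of edgeR on the groups compared. Its medians were 3.38, 3.74 and 3.59 CPM in no DEN liver at 8, 14 and 20 weeks, 4.13, 4.55 and 6.11 CPM in NT liver, and 4.89 and 7.06 CPM in nodules. The largest difference was in nodules at 20 weeks, from 3.74 to 14.8 CPM, where nodule 1 of H28 was the highest (0.81 ± 0.34, adjusted p = 0.0676), and it passed in DESeq2 (adjusted p = 0.0423) and when all 8 groups were fitted together (adjusted p = 0.0326). Among DEN-treated rats, the F rat had the lowest Trib3 at 14 and 20 weeks. F06 had 2.88 CPM in NT liver and 1.71 and 2.77 CPM in its nodules, against 3.99 to 5.70 and 4.69 to 6.37 CPM in the other rats at 14 weeks. Without F06 Trib3 passed in NT liver (0.39, adjusted p = 0.0456) and in nodules (0.48, adjusted p = 0.00693) at 14 weeks, and without F03 in nodules at 20 weeks (1.01, adjusted p = 0.0291). Without the control H15 it passed at 20 weeks in NT liver (0.85, adjusted p = 0.0434) and in nodules (1.13, adjusted p = 0.0205).

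Nodules were next set beside the NT liver of the same rats. No member and no gene of 11466 passed at 14 weeks (0% of genes, with 1348 genes at an unadjusted p under 0.05, and 41 genes called by DESeq2) and none of 11546 at 20 weeks (0%, with 2767 genes at an unadjusted p under 0.05, and 1131 called by DESeq2). With the rat as a block, 0% of genes passed at 14 weeks (2518 at an unadjusted p under 0.05), and 29.3% passed at 20 weeks, among them 3 members. Asns was higher than in the own NT liver in 8 of 8 nodules at 20 weeks, by a log2 of 0.50 to 1.37 (block fit 0.92 ± 0.13, adjusted p = 0.000585; without the block 0.89 ± 0.31, adjusted p = 0.143, and 0.0229 when all 8 groups were fitted together). Herpud1 was lower in 8 of 8, at log2 differences of -0.05 to -0.76 (block fit -0.43 ± 0.09, adjusted p = 0.00318; without the block -0.41 ± 0.16, adjusted p = 0.162). Xbp1 was lower in 8 of 8, at log2 differences of -0.09 to -0.75 (block fit -0.35 ± 0.09, adjusted p = 0.0144; without the block -0.32 ± 0.26, adjusted p = 0.484). So Xbp1 was above no DEN liver in NT tissue and below that NT tissue in the nodules of the same rats. At 14 weeks Asns, Atf4 and Sdf2l1 were higher and Herpud1 and Hspa5 lower in 7 of 8 nodules each, and none of these passed with the block (adjusted p = 0.212, 0.265, 0.349, 0.187 and 0.233). At 20 weeks Sdf2l1, Hspa5 and Dnajb9 were each lower in 7 of 8 nodules and missed the threshold with the block (adjusted p = 0.0609, 0.115 and 0.0594), and Trib3 was higher in 7 of 8 and missed it too (0.25 ± 0.11, adjusted p = 0.0904). In the same block fit 3 of 3 cholangiocyte markers were higher in nodules (Krt19 2.08, Sox9 1.41 and Epcam 0.90). Of 5 stellate cell and fibroblast markers tested 1 was higher, Col1a1 (1.29), and 0 were lower. Of 6 hepatocyte markers 1 was higher, Apoa1 (0.50), and 2 were lower, Alb (-0.51) and Ttr (-0.59). Of 6 macrophage markers 0 were higher and 2 were lower, Marco (-0.81) and Clec4f (-0.35). The part of cell makeup in the 3 member calls was not tested.

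**Figure D3:**
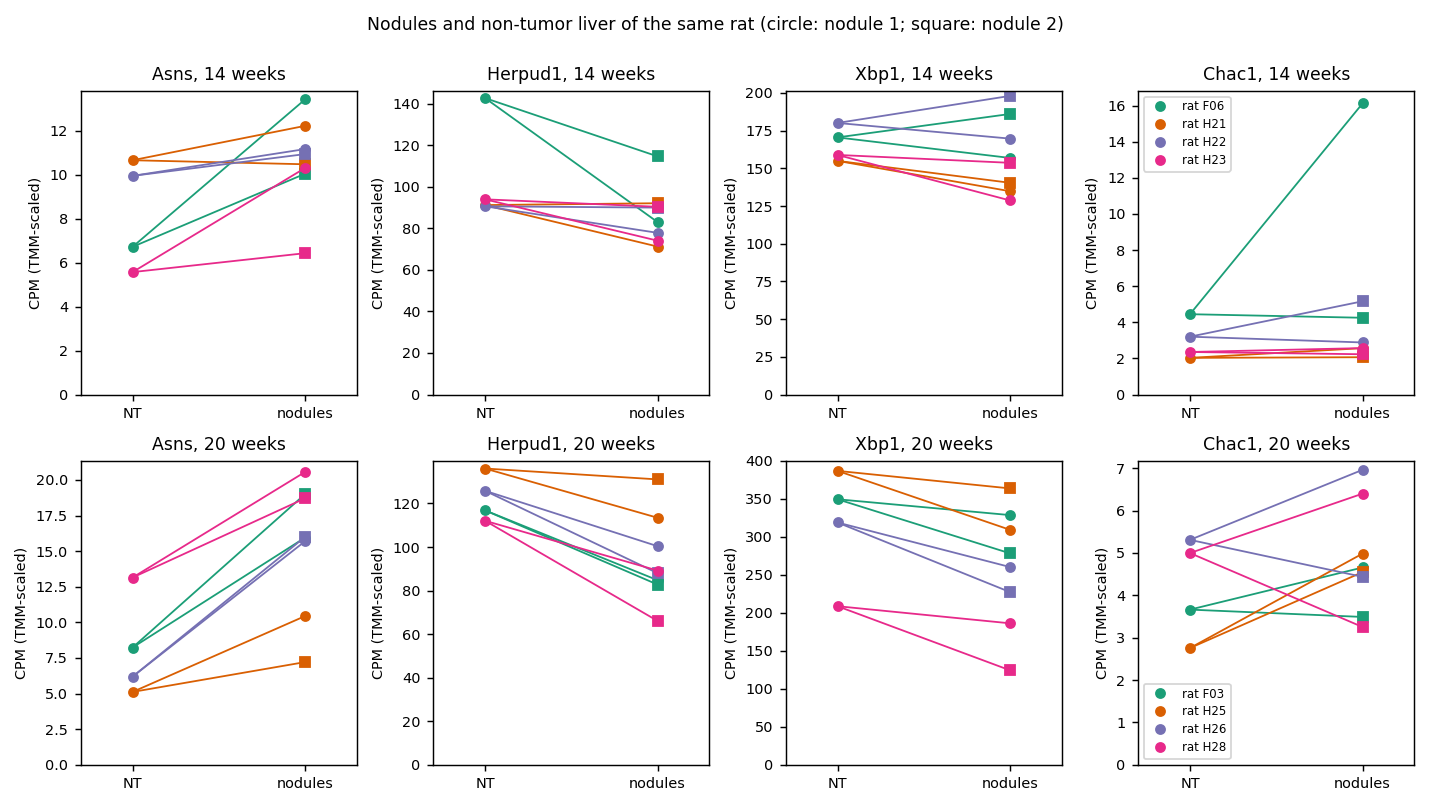
TMM-scaled CPM (y axis, from 0) of Asns, Herpud1, Xbp1 and Chac1 in NT liver and in both nodules of the same rat (x axis; 1 colour per rat, circle nodule 1, square nodule 2) at 14 weeks (top) and 20 weeks (bottom). At 20 weeks all 8 lines rise for Asns and all 8 descend for Herpud1 and for Xbp1, and at 14 weeks 1 nodule of rat F06 lies alone at 16.1 CPM for Chac1.

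Both nodules of a rat were also compared with each other, as a description. Over the 4 rats the median fold between the higher and the lower nodule ran from 1.04 times for Dnajb9 to 1.52 times for Chac1 at 14 weeks and from 1.14 times for Hspa5 to 1.45 times for Chac1 at 20 weeks. Hspa5, Sdf2l1 and Atf4 had medians of 1.07, 1.07 and 1.10 times at 14 weeks, and 1.14, 1.15 and 1.24 times at 20 weeks. Ddit3 had 1.37 and 1.24 times, and Trib3 1.25 and 1.18 times. The largest gap at 14 weeks was the 3.79 times for Chac1 in F06, and at 20 weeks the 2.43 times for Ddit3 in F03. In F06 the nodule with the high Chac1 also had the higher Ddit3 and the lower Trib3.

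Age alone gave no call. Between 8 and 14 weeks and between 14 and 20 weeks, no member passed among no DEN rats, and neither did any other gene (0% of 10486 and 0% of 10432, with 1038 and 670 genes at an unadjusted p under 0.05, and 31 and 40 called by DESeq2). The largest member differences were those of Chac1 (-0.39 ± 0.24, adjusted p = 0.624) and Dnajb9 (-0.38 ± 0.10, adjusted p = 0.412) from 8 to 14 weeks, and Dnajb9 passed without rat H07 (-0.45, adjusted p = 0.0404). Whether the DEN effect itself differed between times was tested with an interaction term, and again no member passed. From 8 to 14 weeks 8.96% of all genes passed for the NT effect, and the members nearest to it were Ddit3 (-0.57 ± 0.19, adjusted p = 0.0709) and Xbp1 (-0.47 ± 0.16, adjusted p = 0.0785). Both passed in DESeq2 (adjusted p = 0.035 and 0.0448), Ddit3 also without F06, H05 or H17, and Xbp1 also without H08 or H18. Among rats of letter H, Atf4 (-0.45, adjusted p = 0.0303) and Asns (1.20, adjusted p = 0.05) passed instead. From 14 to 20 weeks 0.738% of genes passed for the NT effect, with Xbp1 the nearest member (0.73 ± 0.20, adjusted p = 0.0863), which passed without rat H28 (0.88, adjusted p = 0.00432) and in DESeq2 (adjusted p = 0.0262). For the nodule effect 0.0862% of genes passed, and no member came near (adjusted p = 1 for each of the 10).

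Variation from rat to rat was read in 9 pairs of members. After the group mean was removed, over the 24 NT and no DEN livers, Hspa5 correlated with Dnajb9 (Pearson r = 0.639, Spearman rho = 0.544), with Xbp1 (r = 0.582, rho = 0.386) and with Sdf2l1 (r = 0.529, rho = 0.562). None of the 9 pairs passed after adjustment over the 9 (permutation test, smallest adjusted p = 0.0576 for r and 0.0696 for rho), nor among the 20 rats of letter H (smallest adjusted p = 0.17 for r and 0.13 for rho). Outside the 9, as a description, the largest r were those of Herpud1 with Dnajb9 (0.801), Atf4 with Herpud1 (0.685), Atf4 with Dnajb9 (0.638) and Dnajb9 with Xbp1 (0.613), and Dnajb9 with Sdf2l1 had 0.094. Without the 2 rats farthest from the median in Hspa5, the r of Hspa5 with Xbp1 was 0.262, and those with Dnajb9 and with Sdf2l1 were 0.495 and 0.534. Leaving out those rats narrows the range of Hspa5, so a lower r cannot show that a relation rests on them. Ddit3 with Trib3 gave a negative r that did not pass (r = -0.552, rho = -0.564, adjusted p = 0.0576 and 0.0696), and Atf4 mRNA with Asns gave r = -0.156 (rho = -0.0191, adjusted p = 0.66 and 0.938).

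Among 9983 genes of at least 1 CPM on average, the genes whose deviations over the same 24 livers were most like those of each member are given as a description. Nearest to Asns was Mthfd2 (r = 0.826), a mitochondrial folate enzyme, followed by Cx3cl1 (0.77) and Col1a1 (0.741). Sdf2l1 was nearest to Sec11a (0.902), a subunit of the signal peptidase, and Xbp1 to Pigc (0.902), an enzyme of GPI anchor synthesis in the ER. Hspa5 lay nearest to Glyat (0.886) and Dnajb9 to Il6st (0.902), Herpud1 to Siah2 (0.821), Ddit3 to Churc1 (0.852), Atf4 to Tmem39a (0.817), Trib3 to Smad1 (0.809) and Chac1 to Fut8 (0.816).

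The wider pathway was read from lists that hold none of the 10 members. Of all genes tested, 19.8% rose and 15.4% fell in NT liver at 8 weeks, 29.4% and 24.9% at 14 weeks, and 16.7% and 10.9% at 20 weeks, while 27.4% rose and 23.3% fell in nodules at 14 weeks and 28.2% and 24.4% at 20 weeks. The counts of each list stand against these shares, and no test of a list was run. Of 16 ER folding and redox genes, 2 rose and 3 fell in NT liver at 8 weeks, 0 and 5 at 14 weeks, and 0 and 1 at 20 weeks; in nodules 0 rose and 9 fell at 14 weeks and 0 rose and 6 fell at 20 weeks. Their median log2 fold change was -0.31 in nodules at 14 weeks and -0.21 at 20 weeks, against 0.00 and 0.01 over all genes tested. Pdia4, a protein disulfide isomerase, fell in all 5 comparisons, with -0.87 in nodules at 14 weeks (adjusted p = 0.00072) and -0.29 in NT liver at 20 weeks (adjusted p = 0.039), and Ero1b, an oxidase that recharges such isomerases, fell with log2 fold changes of -0.81 and -0.70 in nodules. Creld2 rose in NT liver at 8 weeks (0.45, adjusted p = 0.015), and its NT effect did not pass a test of the difference between 8 and 14 weeks (-0.41, adjusted p = 0.09).

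Of 13 genes of ER-associated degradation, 2 rose and 3 fell in NT liver at 8 weeks, 2 and 7 at 14 weeks, and 1 and 3 at 20 weeks. In nodules 2 rose and 7 fell at 14 weeks and 1 rose and 8 fell at 20 weeks, with medians of -0.38 and -0.33. Sel1l, the adaptor of the Hrd1 ubiquitin ligase, fell with log2 fold changes of -0.62 and -0.49 in NT liver at 8 and 14 weeks and -1.17 in nodules at 14 weeks (adjusted p = 0.00019). Derl3 ran against its list and rose in all 5 comparisons, from 1.08 in NT liver at 14 weeks to 1.59 in NT liver at 20 weeks (adjusted p = 0.0054 and 0.0019). Among 14 sensors and regulators of eIF2alpha, 1 rose and 2 fell in NT liver at 8 weeks, 6 and 5 at 14 weeks, and 1 and 4 at 20 weeks, whereas in nodules 2 rose and 6 fell at 14 weeks and 1 and 7 at 20 weeks. Ern1, which encodes IRE1, fell with log2 fold changes of -1.31 and -1.19 in nodules (adjusted p = 0.00092 and 0.0022), from 16.8 ± 1.9 to 6.93 ± 2.1 CPM at 14 weeks (SD, n = 4 rats). Creb3l3, a liver factor cleaved from the ER membrane, fell in all 5 comparisons, and Ppp1r15a (GADD34), the eIF2alpha phosphatase subunit, rose by 0.51 to 0.78 in the 4 comparisons at 14 and 20 weeks.

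Lists of genes downstream of ATF4 held both rising and falling genes. Of 17 stress targets and amino acid carriers tested, 7, 8 and 5 rose and 4, 5 and 5 fell in NT liver at 8, 14 and 20 weeks, and 9 and 8 rose and 4 and 6 fell in nodules, with medians of 0.94 and 0.79 in nodules. Slc7a11, the cystine carrier, had 0 to 9 counts in no DEN libraries and 298 to 8523 in DEN-treated libraries at 14 and 20 weeks, or 63.6 ± 41 CPM in NT liver and 97.6 ± 48 CPM in nodules at 14 weeks (SD, n = 4 rats). Slc7a1, a carrier of arginine and lysine, rose by 2.81 and 3.09 in NT liver and 3.066 and 4.002 in nodules at 14 and 20 weeks. Atf5, a relative of ATF4 abundant in liver, fell in all 5 comparisons, with -1.77 in nodules at 14 weeks (adjusted p = 7.1e-06), and Cth, which makes cysteine, fell with a log2 fold change of -1.26 in nodules at 20 weeks. Of 8 genes of serine, one-carbon and proline synthesis tested, 4 or 5 rose and 1 or 2 fell in each comparison, with medians from 0.69 in NT liver at 8 weeks to 2.11 in nodules at 20 weeks. Phgdh, the entry enzyme of serine synthesis, rose by 2.07, 3.89 and 3.83 in NT liver and by 4.38 and 4.92 in nodules, from 0.864 ± 0.46 to 27.2 ± 12 CPM at 20 weeks. Aldh1l2 of the same list fell in all 5 comparisons, with -1.14 in nodules at 14 weeks.

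The 20 cytosolic tRNA synthetases, several of which are ATF4 targets, had 0 to 3 rising and 2 to 4 falling in each comparison and medians between -0.07 and 0.08. Vars rose by 0.46 to 0.82 in the 4 comparisons at 14 and 20 weeks, while Tars fell with log2 fold changes of -0.33 to -0.78 in the same comparisons. Of 12 heat shock genes of the cytosol and mitochondria tested, 1 rose and 3 fell in NT liver at 8 weeks, 2 and 2 at 14 weeks and 0 and 2 at 20 weeks. In nodules 4 rose and 1 fell of 13 at 14 weeks and 3 and 1 at 20 weeks. With the rat as a block at 20 weeks, nodules against own NT liver gave 10 rising and 4 falling of 18 ATF4 targets and carriers, and 0 rising and 4 falling of 16 folding genes, where 13.6% of all genes rose and 15.7% fell. In that fit 5 rose and 1 fell of 8 serine, one-carbon and proline genes. Of 14 sensors and regulators 0 rose and 6 fell, and of 13 degradation genes 0 rose and 5 fell. Of 20 tRNA synthetases 3 rose and 2 fell, and of 13 heat shock genes 3 rose and 0 fell. Over these lists Ddit4 (1.12), Slc7a11 (2.06), Mthfd2 (1.29) and Phgdh (1.11) were among the genes higher, and Ern1 (-0.65), Ero1b (-0.66) and Sel1l (-0.66) among the genes lower.

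**Figure D4:**
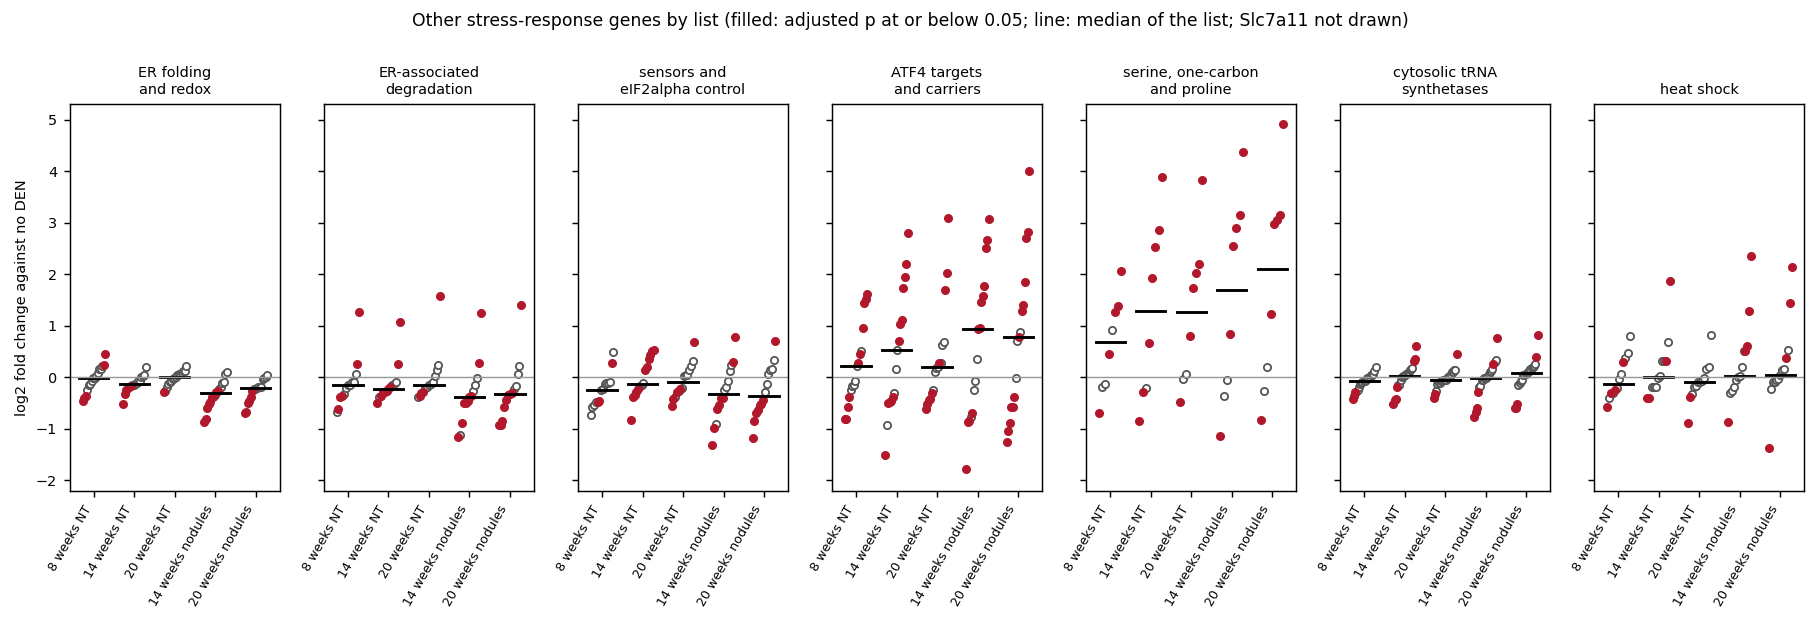
Log2 fold change against no DEN liver (y axis) of the genes of 7 lists in NT liver at 8, 14 and 20 weeks and in nodules at 14 and 20 weeks (x axis); filled points have an adjusted p of at most 0.05, lines are list medians, and Slc7a11 is not drawn because its controls are near 0 counts. Folding genes lie mostly below 0 in nodules (9 fell and 0 rose at 14 weeks), and serine, one-carbon and proline genes lie mostly above 0 in all 5 comparisons.

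Cell makeup and handling genes moved with treatment, and their part in the results above was not tested. The summed level of 6 hepatocyte markers ranged from 270900 to 309200 CPM in no DEN liver at 14 weeks, 186000 to 228900 CPM in NT liver and 130400 to 223400 CPM in nodules, and at 20 weeks from 280700 to 320000, 222600 to 294500 and 132400 to 247100 CPM. In that list 4 of 6 genes fell in NT liver and in nodules at 14 weeks, while Apoa1 rose (0.54 and 0.98). The 3 cholangiocyte markers found of 4 summed to 15.9 to 23.3 CPM in those controls, 36.2 to 86.9 CPM in NT liver and 54.4 to 150 CPM in nodules, with 17.7 to 22.04, 33.2 to 52.9 and 46.6 to 212 CPM at 20 weeks, and the 6 stellate cell and fibroblast markers, of which Col1a2 was listed at 0 counts in every library, to 146 to 188, 326 to 439 and 365 to 499 CPM. All 5 endothelial markers rose in all 5 comparisons with no DEN liver, and at 14 weeks they summed to 59.0 to 87.7 CPM in controls, 144 to 172 CPM in NT liver and 142 to 179 CPM in nodules. The 4 T cell markers summed to 0.868 to 1.90 CPM in no DEN liver and 3.77 to 4.94 CPM in NT liver at 8 weeks, where 4 of 4 rose. Of those tested, 2 of 2 and 2 of 3 rose in NT liver at 14 and 20 weeks, and 4 of 4 and 3 of 4 in nodules. Of 6 macrophage markers 1, 1 and 2 rose in NT liver at 8, 14 and 20 weeks and 2 and 3 in nodules at 14 and 20 weeks, with Cd68 rising in all 5 comparisons (0.60 to 0.83), and 1, Cd163, fell in NT liver at 8 weeks (-0.34, adjusted p = 0.049). Plasma and B cell markers, of cells rich in Xbp1, summed to at most 3.19 CPM over the 5 found of 7, and both that were tested rose in NT liver at 8 weeks (median 1.39), with none called in the other 4 comparisons. At 8, 14 and 20 weeks they summed to 2.22 to 2.80, 0.881 to 1.35 and 1.17 to 2.18 CPM in NT liver, where Xbp1 was called at 8 and 20 weeks, against 0.618 to 1.71, 0.431 to 1.40 and 0.658 to 1.61 CPM in no DEN liver. Immediate early genes, which respond to tissue handling, summed to 53.3 to 93.4 CPM in no DEN liver at 14 weeks, 108 to 159 CPM in NT liver and 104 to 233 CPM in nodules.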

How the data were processed

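Poly(A) RNA of 40 liver and nodule samples was read in pairs. Gene counts were deposited by the authors, 1 table per library, from STAR 2.7.1a and HTSeq (stranded, reverse) on rn6, per the labels and the study's methods; their own tests used DESeq2 1.22.2. The values are whole-number counts with no normalization. The 5 summary rows were left out (no feature 21.5% to 34.5%, not unique 7.96% to 16.3%, ambiguous 0.816% to 1.56%). No column lacked a sample. Both nodules of each rat were summed, which makes the rat the unit. Each comparison was fitted on its own groups in edgeR 4.0.16 (R 4.3.3) with filterByExpr, TMM, the quasi-likelihood test and Benjamini-Hochberg adjustment over all genes tested, called at 0.05, and tested on simulated data. Correlations use log2 CPM with a prior count of 2, with 100000 permutations for the pairs of members and genes of at least 1 CPM for the nearest genes. Figures show TMM-scaled CPM or log2 fold changes. Alternatives were DESeq2 1.42.0, RLE scaling, no filter, all 8 groups in 1 fit, the rat as block, 1 nodule alone, rats of letter H, leaving out each rat, and thresholds after those of the study. NT liver and nodules of a rat deviated together (r = 0.519 at 14 weeks, 0.386 to 0.613 by rat, and 0.605 at 20 weeks, 0.578 to 0.646; 10109 genes, 4 rats), and the labels give 1 rat for both tissues, so the block is a true pairing. The members and lists were chosen with earlier results of these data known. Named besides the members are, per list and comparison, up to 2 of the largest rises and falls called at a mean of 1 CPM or more, and the genes nearest to each member. Derl2, Jchain, Cd79a and Krt7 of the lists had no row under those symbols. Within a group, libraries are of separate rats except for the 2 nodules of each rat. The most alike pair of a group differed beyond counting noise (chi-square per degree of freedom 13.4).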

Additional observations from a re-analysis of the deposited data

Results flagged for a closer look

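Among the 80 combinations of member and group, each of 4 rats, 11 held a rat whose gap to the nearest of the other 3, divided by the range of the group (both on log2 CPM), exceeded Dixon's critical value for that number. Chance flags about 1 in 20 groups. Rat F06 was the rat apart in 5 of the 11. In its nodules at 14 weeks Ddit3 was high at 17.8 CPM against 7.36 to 7.85 CPM (gap 0.9177 of the range) and Atf4 high at 214 CPM against 138 to 142 CPM (0.9404). Trib3, in contrast, was low there at 2.24 CPM against 4.90 to 5.65 CPM (0.8575). In the NT liver of F06 Herpud1 was high at 143 CPM against 90.6 to 93.9 CPM (0.9198) and Dnajb9 high at 49.0 CPM against 30.2 to 32.2 CPM (0.8648).

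Single rats made up the other 6. Asns was lowest in the nodules of H23 at 14 weeks, 8.37 CPM against 11.1 to 11.7 CPM (0.8595), and Ddit3 lowest in NT liver of H17 at 8 weeks, 11.1 CPM against 13.9 to 14.1 CPM (0.9296). In no DEN liver, Ddit3 was highest in H12 at 14 weeks (9.67 CPM against 8.19 to 8.41 CPM, 0.8381) and Xbp1 highest in H10 at 14 weeks (183 CPM against 159 to 160 CPM, 0.9448). Chac1 was highest in H14 at 20 weeks (3.73 CPM against 2.28 to 2.38 CPM, 0.9105) and Dnajb9 lowest in H07 at 8 weeks (42.5 CPM against 52.1 to 53.2 CPM, 0.9058).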

How the results depend on the processing

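Of 1910 log2 fold changes of members under an alternative, 41 lost a call, 51 gained one and 0 changed sign with a call in either setting, while 102 changed sign with a call in neither (largest size 0.381). RLE scaling changed no member's call. At thresholds after those of the study, which leaves the scale of its fold changes to be read (here a log2 fold change of at least 1 with an adjusted p of at most 0.01 for NT liver, applied at 20 weeks too, and at least 0.5 with 0.05 for nodules), members called numbered 0, 1 and 1 in NT liver at 8, 14 and 20 weeks. Of all genes 7.91%, 15.2% and 5.22% passed there (855, 1676 and 565). In nodules 3 and 3 members passed at 14 and 20 weeks, beside 39.1% and 38.8% of all genes (4425 and 4347). Among rats of letter H, which equals leaving out F06, 7 members passed in NT liver at 14 weeks, where leaving out single rats gave 5365 to 6503 of all genes. With nodule 2 alone 1 member passed in nodules at 20 weeks, against 3 members and 52.7% of all genes with both nodules summed. The rat as block brought nodules against NT liver at 20 weeks from 0 to 3 members and 3378 genes and changed no other call. That comparison had 1 member and 1722 genes in the fit of all 8 groups, 1131 genes in DESeq2 and 239 with nodule 1 alone, and DESeq2 called 41 genes at 14 weeks. Age in no DEN liver gave 31 and 40 genes in DESeq2, 2 and 2 with no filter, and 1 in the fit of all 8 groups (8 to 14 weeks). The NT effect from 8 to 14 weeks had 2 members in DESeq2 and 2 among H rats, with 1518 genes in DESeq2 and 151 in the fit of all 8 groups. From 14 to 20 weeks it had 1 member and 390 genes in DESeq2, 41 genes in the fit of all 8 groups and 182 among H rats, and the nodule effect 29, 16 and, with nodule 1 alone, 5 genes. The cause of these shifts was not tested.

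Leaving out each rat in turn gave 2 (without H23) to 7 (without F06) members and 5365 to 6503 genes in NT liver at 14 weeks. At 20 weeks it gave 2 to 3 members and 1872 (without H16) to 3116 (without H13) genes in NT liver. It gave 0 to 451 genes in nodules against NT liver at 20 weeks (451 without H25), 0 to 1 member and 0 to 166 genes with age from 8 to 14 weeks (1 and 166 without H07) and 0 to 2 genes from 14 to 20 weeks. The NT effect had 0 to 2 members and 533 to 1870 genes from 8 to 14 weeks (533 without H21, 1870 without H17, 2 members without F06) and 0 to 1 member and 31 to 408 genes from 14 to 20 weeks (1 member without H28), and the nodule effect 6 to 15 genes. Members called otherwise ranged from 3 to 5 in NT liver at 8 weeks, with 2692 to 4659 genes. In nodules they ranged from 4 to 7 at 14 weeks, with 4835 to 7361 genes, and from 2 to 4 at 20 weeks, with 4999 to 6040 genes. With 4 rats a group, calls near the threshold turn on single rats, and members of few CPM (Chac1, down to 37 counts) carry more counting error.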
